A study of Mus musculus with 4 samples.

Results

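The lipid handling genes are 9 genes, Abca1, Abcg1, Apoe, Plin2, Lpl, Cd36, Fabp4, Fabp5 and Lipa, chosen by name out of the 55335 genes counted in 4 RNA-seq libraries of mouse skin cells. The level of each gene is its number of counted fragments, summed over the exons of the gene. The 2 control libraries are from Mettl3fl/fl mice and the 2 knockout libraries from Mettl3fl/fl;Cd4-Cre mice, so floxed Mettl3 alleles are present in both groups. Mettl3 is the enzyme that deposits N6-methyladenosine on RNA, and Cre driven by Cd4 acts in T cells and their precursors, so the deletion is not aimed at other skin cells. All 4 libraries are from animals aged 8 to 12 weeks whose backs were treated with 5% imiquimod cream for 5 days in a daily amount of 15 or 62.5 mg, and none from untreated skin. By their labels the cells are CD4+ T cells from skin. Dermal suspensions were stained for CD45 and CD4 after the fat layer had been cut away.

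Macrophages take up lipoproteins and dying cells and must store or export the cholesterol and fatty acids that they contain. Sterol ligands activate the nuclear receptors LXR, which switch on the export pumps Abca1 and Abcg1 and the lipoprotein Apoe, while fatty acids activate PPAR receptors, which act on droplet, binding and uptake genes such as Plin2, Fabp4, Lpl and Cd36. Lipa breaks down lipoprotein lipids in lysosomes. In skin, keratinocytes, sebaceous glands and fat cells also handle large amounts of lipid, with Fabp5 known from the epidermis and Fabp4 and Lpl from fat.

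The upstream sequences of Abca1 and Plin2 are shown because both genes had higher values in both knockouts than in both controls and both are textbook targets of such receptors, which bind repeats of the hexamer AGGTCA, spaced by 4 bases for LXR and by 1 base for PPAR. RefSeq windows (GRCm38.p6) were matched for 5 of the 9 genes, Abca1, Plin2, Cd36, Apoe and Lipa. Each sequence holds the 250 bases before a RefSeq gene start, read 5′ to 3′ on the strand of the gene. In the Abca1 window (chr4:53159896-53160145, minus strand) the capitals mark the closest match on either strand to the repeat spaced by 4 bases, with 3 mismatches, ending 52 bases before the start. In the Plin2 window (chr4:86670060-86670309, minus strand) the capitals mark a match to the repeat spaced by 1 base, with 2 mismatches, ending 213 bases before the start. Both matches lie on the opposite strand.
Abca1: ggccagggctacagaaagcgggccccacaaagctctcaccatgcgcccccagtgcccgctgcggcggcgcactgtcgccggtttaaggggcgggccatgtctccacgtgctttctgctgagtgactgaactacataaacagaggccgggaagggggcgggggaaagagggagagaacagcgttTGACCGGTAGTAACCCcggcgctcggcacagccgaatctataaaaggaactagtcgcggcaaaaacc
Plin2: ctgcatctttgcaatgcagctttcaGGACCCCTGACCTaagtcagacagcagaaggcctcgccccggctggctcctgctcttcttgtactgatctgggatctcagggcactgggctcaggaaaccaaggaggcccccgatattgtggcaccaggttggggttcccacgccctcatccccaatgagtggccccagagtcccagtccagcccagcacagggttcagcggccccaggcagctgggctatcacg
Such matches are common. The repeat spaced by 4 with up to 3 mismatches was in 18.5% of 32851 promoter windows of that length, among the 5 genes only in that of Abca1. No window matched for Apoe, also an LXR target with both knockouts above both controls, held it. With up to 2 mismatches it was in 2.57% of windows, which included none of the 5 genes. The repeat spaced by 1 with up to 2 mismatches was in 3.24% of windows, among them those of Plin2 and Cd36. A TATAAA was in 12.4% of windows on either strand, among them those of Abca1 and Lipa and a window of Apoe. No binding was measured in these libraries.

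The libraries held 3614418 to 4537006 fragments, and 3 fragments, the limit that a count of 0 allows, corresponded to 0.655 to 0.792 CPM. CPM is the count scaled to library size with TMM factors, SD is over 2 libraries, and values given by library follow the order control 1, control 2, knockout 1, knockout 2. T cell identity genes summed to 219 to 1270 CPM, against 10663 to 34130 CPM for 20 macrophage and monocyte markers, and Cd4 had 170 CPM (control 1), 0 (control 2), 105 (knockout 1) and 2.13 (knockout 2). Genes of the labelled cell type thus held far fewer fragments than macrophage genes in each of the 4 libraries. Control 2 stood apart, with fragments of 11424 genes against 16273 to 20100 in the other libraries and with 29511 CPM of keratinocyte markers against 1464 to 3304. Mettl3 had 42.6 CPM (control 1), 12.9 (control 2), 30.2 (knockout 1) and 37.4 (knockout 2), but 89.9% of its fragments lay in retained-intron exons, so these values check nothing about the deletion.

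Together the 9 genes took 0.331% of control 1 fragments (exact binomial 95% interval 0.326 to 0.337), 0.394% of control 2 fragments (0.387 to 0.400), 0.478% of knockout 1 fragments (0.471 to 0.484) and 0.519% of knockout 2 fragments (0.512 to 0.526). Both knockouts were above both controls, and the intervals cover counting error only. Per kb of countable exon, the mean level over the 4 libraries was 824 CPM for Apoe, 355 for Plin2, 193 for Abcg1, 141 for Fabp5, 90.6 for Abca1, 50.7 for Lpl, 44.6 for Fabp4, 3.01 for Lipa and 1.54 for Cd36. Only at the steps from Apoe to Plin2 and from Fabp4 to Lipa did the ranges of neighbours in that order not overlap over the libraries. Apoe spanned 559 to 1279 CPM per kb and Plin2 167 to 510, and Fabp4 spanned 9.81 to 75.1 and Lipa 0.258 to 8.07. The per-kb levels are rough, since only exon stretches annotated in 1 transcript could be counted. Retained-intron exons held 97.4% of the Apoe, 99.0% of the Fabp4 and 84.0% of the Fabp5 fragments. The places of these genes in the order, with that of Apoe above Plin2, may thus not hold for spliced mRNA.

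Of 12434 genes tested, 0 passed an adjusted p of 0.05 (0%) by edgeR's quasi-likelihood test, and 187 had an unadjusted p below 0.05. None of the 8 lipid handling genes tested passed, each with an adjusted p of 0.9997. DESeq2 called 17 genes, edgeR with no filter on low counts 27 and limma-voom 0, none of them a lipid handling gene. In 4 of the 8 genes both knockouts were above both controls, namely Abca1, Abcg1, Apoe and Plin2, against 19.5% of all genes tested, and in 1, Lipa, both were below, against 11.2%. Without control 2 these counts were 6 against 28.8% and 1 against 31.5%. The median log2 fold change was 0.49 over the 8 genes and 0.20 over all genes, and 5 of the 8 values were positive, as were 7079 of the 12434. Fewer cells of a type and less RNA per cell cannot be told apart in such bulk libraries.

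**Figure D1:**
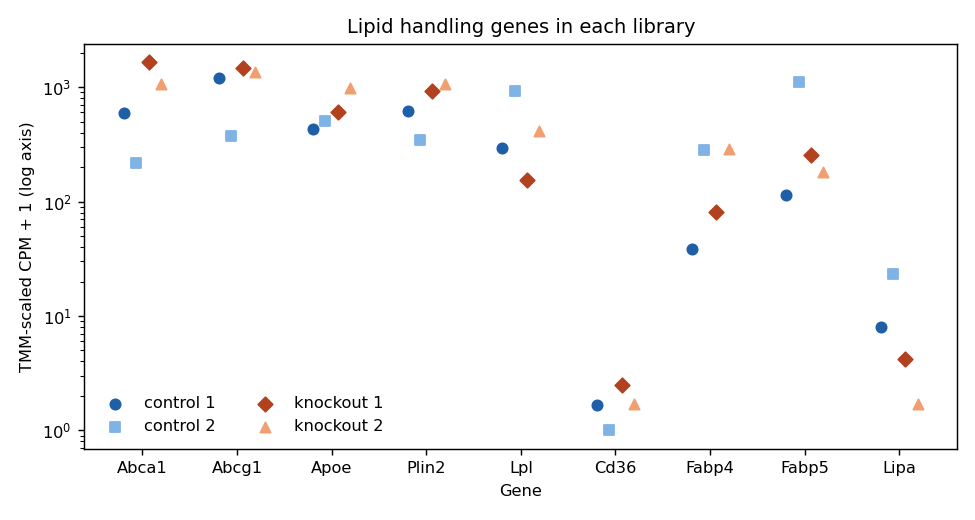
TMM-scaled CPM plus 1 on a log axis for each of the 9 genes, 1 point per library (control 1 and 2 in blue, knockout 1 and 2 in red and orange). Abca1, Abcg1, Apoe and Plin2 have both knockout points above both control points, Fabp5 is highest in control 2 (1099 CPM) and Cd36 lies near 0 in all 4 libraries.

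Abca1, the pump that loads cellular cholesterol and phospholipid onto lipid-poor apolipoprotein A-I, had the lowest p of the 9 genes. The gene (ENSMUSG00000015243) lies on chromosome 4 of GRCm38, 53030787 to 53159895, minus strand. It had 2708 fragments (control 1), 820 (control 2), 6584 (knockout 1) and 4481 (knockout 2), or 591, 216, 1643 and 1059 CPM in that order. The lower knockout was above the higher control, and both groups spread widely, with 404 ± 265 CPM for the controls against 1351 ± 413 for the knockouts (SD, n = 2 each). The ratio of the means was 3.35 and the log2 fold change 1.74 (SE 0.69, edgeR unadjusted p = 0.049, adjusted p = 0.9997), rank 183 of 12434 genes by p. It was 1.19 without control 2 and 2.71 without control 1, a setting in which the median of all genes tested was itself 1.72. Over the alternatives that kept all 4 libraries the lowest adjusted p was 0.91, by limma-voom.

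All Abca1 fragments lay in exons of protein-coding transcripts, which spread over the gene, so that the difference can be read at many places along it. Of 56 exon entries 45 held fragments, with 40 (control 1), 10 (control 2), 44 (knockout 1) and 44 (knockout 2). The last exon (53030787 to 53034083), with 45.3% of the fragments, had 229 CPM (control 1), 159 (control 2), 621 (knockout 1) and 582 (knockout 2), a ratio of means of 3.10. The other 44 entries together had 362, 57.3, 1022 and 477 CPM in the same order, a ratio of 3.58. Both knockouts were above both controls in 21 of the 29 entries with at least 40 fragments and below in 0 of them. Exons of 1 gene are not independent of each other, since they share the transcript and the library. Control 2 was the thinnest along the gene, with fragments in 10 entries.

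**Figure D2:**
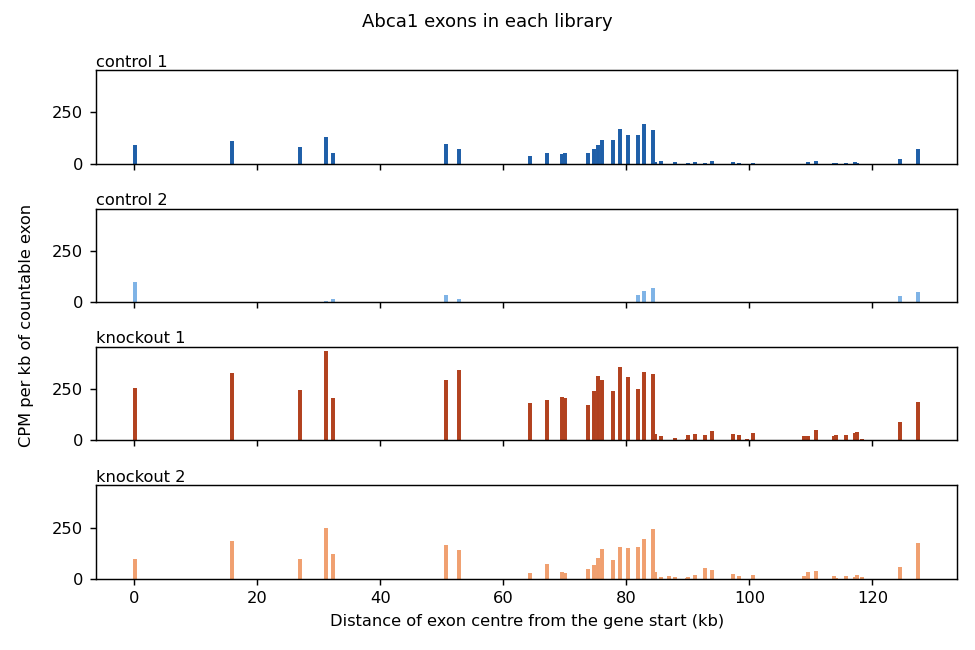
CPM per kb of countable exon for each Abca1 exon entry in each library, against the distance of the exon centre from the gene start in kb. The bars of knockout 1 are the tallest along most of the gene, and control 2 has fragments in 10 entries against 40 to 44 in the other libraries.

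Abcg1, which passes cholesterol on to lipid-bearing high-density lipoprotein, showed a smaller difference that, for the gene total, rested largely on control 2. The gene (ENSMUSG00000024030, chromosome 17, 31057675 to 31117988, plus strand) had 5494, 1401, 5912 and 5774 fragments by library. These are 1199, 370, 1476 and 1365 CPM, so control 1 was close to the knockouts and control 2 far below them. The means were 785 ± 587 CPM for the controls against 1420 ± 78.2 for the knockouts (SD, n = 2 each), and the log2 fold change was 0.86 (SE 0.69, edgeR adjusted p = 0.9997), with 0.24 without control 2 and 2.01 without control 1. Its last exon held 89.0% of the fragments, with 1125, 272, 1311 and 1205 CPM in that order. The rest of the gene had 74.4, 98.2, 165 and 160 CPM, where control 2 was the higher control and the ratio of means was 1.88. In 6 of the 8 entries with at least 40 fragments both knockouts were above both controls, and in 0 below.

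Within a library the number of Abca1 fragments per Abcg1 fragment needs no scaling between libraries. It was 0.493 (control 1), 0.585 (control 2), 1.11 (knockout 1) and 0.776 (knockout 2). Both controls were below both knockouts, and both controls were close to each other although their Abcg1 levels were 3.24 times apart. This depended on where the fragments lay. The last exons alone had, by library, 1051, 603, 2488 and 2463 Abca1 fragments against 5153, 1029, 5251 and 5097 Abcg1 fragments. There the ratio was highest in control 2 and lowest in control 1, so the groups overlapped. No test is given for either ratio.

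Apoe, the lipoprotein component that macrophages secrete with cholesterol, was read almost wholly through an intron-retaining stretch. The gene (ENSMUSG00000002985, chromosome 7, 19696109 to 19699188, minus strand) had 1953, 1896, 2442 and 4123 fragments by library, or 426, 500, 610 and 975 CPM. The controls were near each other and knockout 1 was nearer to them than to knockout 2. The means were 463 ± 52.4 CPM for the controls against 792 ± 258 for the knockouts (SD, n = 2 each), with a log2 fold change of 0.77 (SE 0.53, edgeR adjusted p = 0.9997), between 0.47 without knockout 2 and 1.12 without knockout 1. A retained-intron entry (19696735 to 19697631) held 97.4% of the fragments. The 6 other entries with fragments, all of protein-coding transcripts, had 11.6, 21.6, 19.0 and 13 CPM in that order, where the groups overlapped, and without retained-intron exons the log2 fold change was 0.05. The Apoe values therefore describe 136 countable bases of the gene more than its spliced mRNA.

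Plin2, a protein that coats lipid droplets and accumulates with them, had knockout values that lay close together. The gene (ENSMUSG00000028494, chromosome 4, 86648386 to 86670060, minus strand) had 2809, 1308, 3727 and 4468 fragments by library, or 613, 345, 930 and 1056 CPM. The knockouts lay 1.14-fold apart and the controls 1.78-fold, and the groups did not overlap. The means were 479 ± 189 CPM for the controls against 993 ± 89.1 for the knockouts (SD, n = 2 each), and the log2 fold change was 1.05 (SE 0.54, edgeR adjusted p = 0.9997), with 0.69 without control 2 and 1.59 without control 1. An exon entry of protein-coding transcripts (86656565 to 86657404) held 54.8% of the fragments, with a ratio of means of 1.63. The other 9 entries had 255, 88.4, 463 and 522 CPM in library order, a ratio of 2.87. Most of their fragments lay in entries of processed transcripts. The largest held 23.3% of the gene's fragments and overlapped coding sequence, and the next, with 10.9%, overlapped neither coding sequence nor untranslated region. Entries of protein-coding transcripts held 65.3% of all Plin2 fragments. Both knockouts were above both controls in 7 of the 8 entries with at least 40 fragments.

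**Figure D3:**
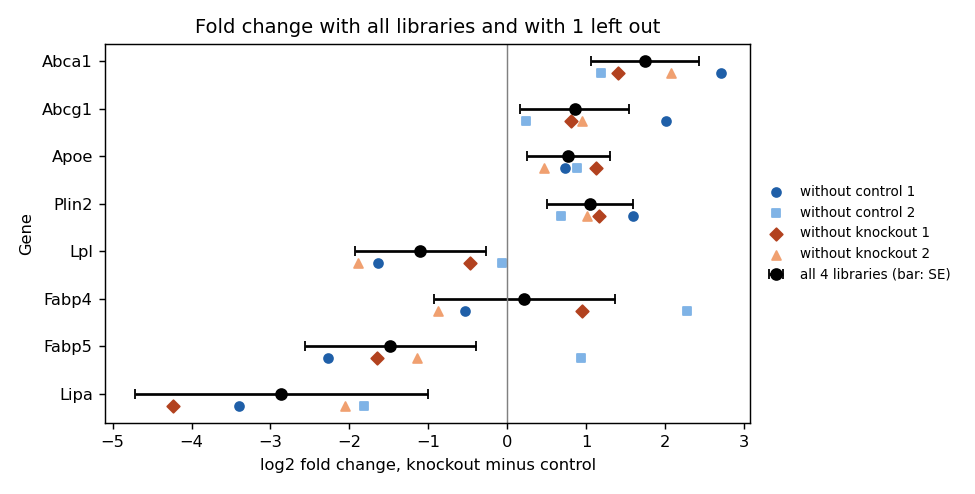
log2 fold change of each tested gene, knockout minus control, with all 4 libraries (black, bars of 1 SE) and with each library left out (coloured points). Abca1, Abcg1, Apoe and Plin2 stay above 0 and Lpl and Lipa below 0 whichever library is left out, while Fabp4 and Fabp5 take both signs.

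Lpl, the lipase that frees fatty acids from circulating triglyceride and is made by fat cells and macrophages, had its highest value in a control. The gene (ENSMUSG00000015568, chromosome 8, 68880491 to 68907448, plus strand) had 1346, 3490, 610 and 1753 fragments by library, or 294, 921, 152 and 414 CPM. Control 2 was highest and knockout 1 lowest, and control 1 was below knockout 2, so the groups overlapped. The means were 608 ± 444 CPM for the controls against 283 ± 185 for the knockouts (SD, n = 2 each), and the log2 fold change was -1.10 (SE 0.83, edgeR adjusted p = 0.9997). Without control 2 it was -0.06. A 3' exon entry that overlaps the untranslated region (68904506 to 68906934) held 92.4% of the fragments.

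Cd36, the scavenger receptor and fatty acid transporter, had 12 fragments in all. Of its 82 exon entries, 70 share their coordinates with another transcript and could hold no fragments, and the level per kb of the exon that could be counted was the lowest of the 9 genes. The gene (ENSMUSG00000002944, chromosome 5, 17781690 to 17888801, minus strand) had 3 fragments (control 1), 0 (control 2), 6 (knockout 1) and 3 (knockout 2). These counts lie at or near the limit that a count of 0 allows, from 0.464 kb of countable exon, and the gene was not tested. A difference was not detectable at this depth.

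Fabp4 and Fabp5 are nearby genes for small proteins that carry fatty acids inside cells, Fabp4 known from fat cells and macrophages and Fabp5 from the epidermis. Fabp4 (ENSMUSG00000062515, chromosome 3, 10204088 to 10208576, minus strand) had 173, 1062, 321 and 1224 fragments by library, or 37.8, 280, 80.1 and 289 CPM. 1 library of each genotype was high and the other low, so the groups overlapped, with 159 ± 172 CPM for the controls against 185 ± 148 for the knockouts (SD, n = 2 each). Its log2 fold change was 0.22 (SE 1.15, edgeR adjusted p = 0.9997), with -0.87 without knockout 2 and 2.28 without control 2. Adipoq, the fat cell hormone, followed the same split with 7.64, 464, 82.9 and 483 CPM in that order. The 12 fat cell markers summed to 22.5, 522, 208 and 568 CPM by library, 2 to 6 of them at 0 in each, with Lep at 0 in all 4 libraries. Adipoq is 1 of the 12 and held most of the sum in control 2 and knockout 2. The rest of the sum was highest in knockout 1, where Fabp4 was low. The part of the fat cell markers in the Fabp4 values was not tested.

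Fabp5 (ENSMUSG00000027533, chromosome 3, 10012548 to 10016607, plus strand) had 515, 4163, 1011 and 764 fragments by library. The CPM values were 112, 1099, 252 and 181, so that control 2 stood alone and control 1 was the lowest. The log2 fold change was -1.48 (SE 1.08, edgeR adjusted p = 0.9997), with 0.94 without control 2 and -3.39 without retained-intron exons. Keratinocyte markers summed to 2389 CPM (control 1), 29511 (control 2), 3304 (knockout 1) and 1464 (knockout 2), with 2 to 5 of the 20 at 0 in each library. Control 2 was thus far above the others in both the gene and the markers, whose part in the Fabp5 values was not tested. Retained-intron exons held 99.0% of the Fabp4 and 84.0% of the Fabp5 fragments. The protein-coding Fabp5 entry had 10.9, 237, 21.5 and 0 CPM in library order, and its 0 in knockout 2 came with 764 fragments in the retained-intron entry.

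Lipa, the lysosomal acid lipase, was the 1 gene with both knockouts below both controls, on few fragments. The gene (ENSMUSG00000024781, chromosome 19, 34492318 to 34527474, minus strand) had 32, 84, 13 and 3 fragments by library, or 6.99, 22.2, 3.24 and 0.709 CPM. The log2 fold change was -2.86 (SE 1.85, edgeR adjusted p = 0.9997), from -4.23 without knockout 1 to -1.81 without control 2. The fragments did not come from the same place. All 84 in control 2 lay in an entry of a processed transcript (34501503 to 34501853), where the other libraries had 1, 0 and 0. A retained-intron entry near the gene start (34524738 to 34527452) held 31 (control 1), 0 (control 2), 13 (knockout 1) and 3 (knockout 2). No fragment lay in exons of protein-coding transcripts, so the level of the spliced mRNA was not measured.

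Macrophage markers were higher in both knockouts, as were Abca1, Abcg1, Apoe and Plin2, while Lipa was lower in both. In 13 of the 17 markers tested both knockouts were above both controls (76.5%, against 19.5% of all genes tested). The 20 markers summed to 21621 CPM (control 1), 10663 (control 2), 34130 (knockout 1) and 31058 (knockout 2). Of these defining markers, 1, 5, 1 and 3 were at 0 in that order, Aif1 in all 4 libraries. Lyz2, the lysozyme of myeloid cells, had 9378, 3876, 14351 and 10809 CPM. As a share of the macrophage sum, Abca1 was 2.73% (control 1), 2.03% (control 2), 4.81% (knockout 1) and 3.41% (knockout 2), still with both knockouts higher and a ratio of means of 1.73 against 3.35 for the level itself. On that scale Abcg1 (5.55, 3.47, 4.32 and 4.39%), Plin2 (2.84, 3.24, 2.73 and 3.40%) and Apoe (1.97, 4.69, 1.79 and 3.14%) overlapped between the groups. Their ratios of means were 0.967, 1.01 and 0.739. Lpl was lower in both knockouts on the same scale, at 1.36, 8.64, 0.446 and 1.33%, with control 1 and knockout 2 almost equal. The 12 neutrophil markers, G0s2 among them, summed to 1764, 573, 4900 and 2689 CPM in library order, also higher in both knockouts. Mxd1 had 1282, 252, 3041 and 1455 CPM of these. By library 4, 5, 2 and 3 of the 12 were at 0, and of 6 tested 5 had positive values and 1 a negative value. Whether the number of macrophages or neutrophils had a part in these values was not tested.

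**Figure D4:**
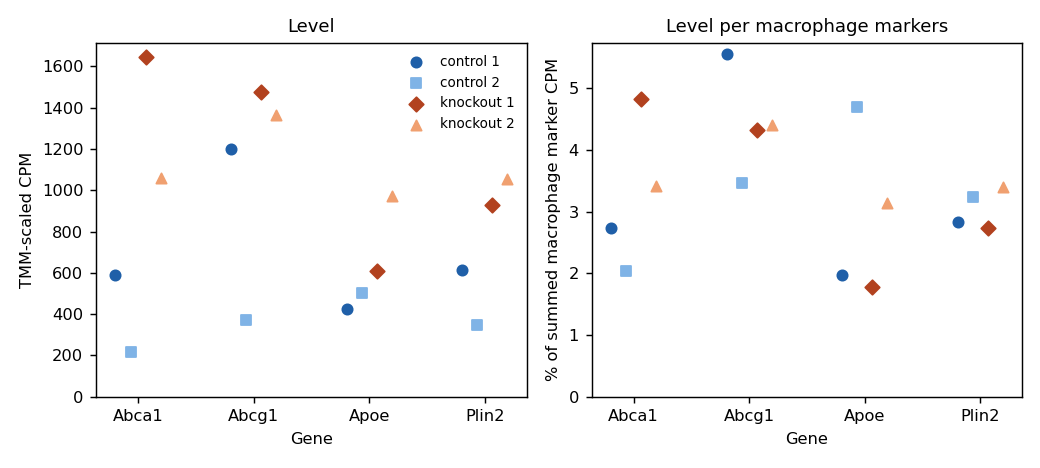
Left, TMM-scaled CPM of Abca1, Abcg1, Apoe and Plin2 in each library. Right, the same values as a percentage of the summed CPM of 20 macrophage markers, where Abca1 alone of the 4 keeps both knockouts (3.41 and 4.81%) above both controls (2.03 and 2.73%).

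**Figure D5:**
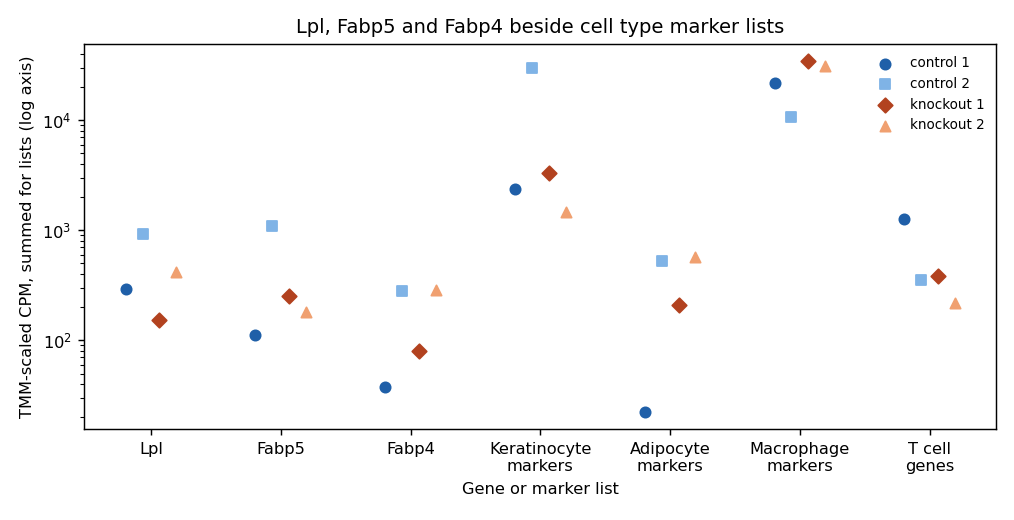
TMM-scaled CPM on a log axis of Lpl, Fabp5 and Fabp4 and the summed CPM of 4 marker lists in each library. Control 2 is highest for Lpl, Fabp5 and keratinocyte markers. Control 2 and knockout 2 are highest for Fabp4 and the fat cell sum (522 and 568 CPM), most of which is Adipoq in these libraries.

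The genes closest in pattern over the 4 libraries were found by the root mean square difference of centred log2(CPM + 1) values among 5188 genes with a mean of at least 20 CPM (5189 for Lipa), as a description of 4 points. For Abca1 they were Klhl6 (distance 0.07) and Cybb (0.09), a subunit of the phagocyte oxidase. For Abcg1 they were Siva1 (0.04) and Capg (0.06), an actin-capping protein of macrophages. Plin2 was closest to Fth1 (0.06), the ferritin heavy chain, and to March7 (0.07), and Apoe to H2-Q6 (0.08) and Grtp1 (0.11). Lpl was closest to Adipor2 (0.07), an adiponectin receptor, and to Ankmy2 (0.09). The closest genes to Fabp4 were farther away, Fitm2 (0.23), which acts in droplet formation, and Cat (0.25), the catalase. Fabp5 was closest to Smim20 (0.11) and Tgs1 (0.16), and Lipa to Pum3 (0.14) and Iws1 (0.15). Among the lipid handling genes themselves the closest pair was Abcg1 and Plin2 (0.32), and Abca1 and Lipa were the farthest apart (2.37).

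Around these 9 genes, 144 other lipid genes were examined, of which 109 were tested and 0 passed (0%), with 1 unadjusted p below 0.05. Both knockouts were above both controls in 24.8% of the 109 and below in 11.0%, near the 19.5% and 11.2% of all genes tested, and the median log2 fold change was 0.24, near the 0.20 of all genes. Each lipid list was read against the same shares and median, and the difference of a list from all genes was not tested. In the LXR and efflux list 8 of 20 tested genes (40%, against 19.5% of all genes) were above and 1 (5.0%, against 11.2%) was below, with a median of 0.66 against 0.20. The macrophage markers given above were also higher in both knockouts, and their part in these values was not tested. Nceh1, which frees stored cholesterol from its esters, had 333, 124, 776 and 394 CPM in library order, with both knockouts higher (log2 fold change 1.36, SE 0.73). Scd1, a fatty acid desaturase abundant in sebaceous glands, had 141, 3064, 255 and 3894 CPM, high in 1 library of each genotype. Apoc2, the cofactor of Lpl, had 0, 0, 13 and 31 fragments by library.

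Of 23 cholesterol synthesis genes tested, 17 had negative values, as did 5355 of all 12434 genes. Both knockouts were below both controls in 7 (30.4%, against 11.2% of all genes) and above in 2 (8.70%, against 19.5%), and the median was -0.44 against 0.20. Hsd17b7, an enzyme of late sterol synthesis, had 116, 125, 33.4 and 28.4 CPM by library, with libraries of a genotype close together (log2 fold change -1.96, SE 0.78, edgeR adjusted p = 0.9997). Insig1, which restrains sterol synthesis, overlapped between the groups at 526, 452, 511 and 317 CPM, as did Cyp51, a sterol demethylase, at 159, 366, 143 and 283 CPM. Dhcr7, the last enzyme of the pathway, went against the list with 1, 0, 33 and 30 fragments by library, nearly all in retained-intron exons (98.4%). In fatty acid synthesis, 3 of 9 tested genes (33.3%, against 11.2% of all genes) had both knockouts below both controls and 0 above, but 5 of the 9 values were positive and the median was 0.24. Scd2, a desaturase of many tissues, had 355 and 401 CPM in controls against 191 and 178 in knockouts (log2 fold change -1.03, SE 0.53), and Fads2, which desaturates polyunsaturated fatty acids, had 70.1 and 36.2 against 24 and 8.27. Elovl5, a fatty acid elongase, had 474, 50.2, 669 and 426 CPM by library, where the groups overlapped (log2 fold change 1.06, SE 1.07). Fibroblast markers summed to 15833, 3603, 6739 and 7252 CPM by library, lower in the knockouts than in control 1 but higher than in control 2. They had negative values in 11 of 11 tested, with 0 to 2 of the 13 at 0. Keratinocyte markers had negative values in 15 of 16, with sums of 2389, 29511, 3304 and 1464 CPM by library, by far the highest in control 2. T cell identity genes, those of the labelled cell type, had negative values in 16 of 18, with a median of -1.14. Both knockouts were below both controls in 6 (33.3%, against 11.2% of all genes) and above in 1 (5.56%, against 19.5%). T cell identity genes summed to 1270, 357, 383 and 219 CPM by library, with 0, 5, 0 and 4 of the 18 at 0. The part of these 3 marker lists in the values of the synthesis genes was not tested.

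Among lipoprotein receptors, 2 of 12 tested genes (16.7%, against 19.5% of all genes) had both knockouts above both controls and 0 below, with a median of 0.34. Those were Olr1, the receptor for oxidised low-density lipoprotein, and Msr1, the class A scavenger receptor. Olr1 had 80.1, 33.8, 445 and 188 CPM (log2 fold change 2.47, SE 0.82, edgeR unadjusted p = 0.028, adjusted p = 0.9997), and Msr1 had 214, 12.4, 738 and 447 CPM. Lrp1, a large endocytic receptor, had 2755, 235, 1883 and 1869 CPM, highest and lowest in the controls.

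In the droplet list, 4 of 11 tested genes (36.4%, against 19.5% of all genes) had both knockouts above and 0 below, but 6 of the 11 values were negative and the median was -0.12. Dgat2, which makes triglyceride, had 220 and 102 CPM in controls against 369 and 442 in knockouts (log2 fold change 1.33, SE 0.64). Hilpda and G0s2, both inhibitors of the lipase that empties droplets, had 441 and 168 against 716 and 656 CPM and 76.2 and 51.2 against 97.6 and 291 CPM. Plin3, a droplet coat protein like Plin2, overlapped at 589, 549, 401 and 647 CPM.

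In lysosomal lipid breakdown, the list nearest to Lipa, 7 of 12 tested genes (58.3%, against 19.5% of all genes) had both knockouts above and 0 below, with a median of 0.94 against 0.20. Lamp1, a lysosomal membrane protein, had 1799 and 1033 CPM in controls against 2560 and 2186 in knockouts (log2 fold change 0.75, SE 0.52). Asah1, the acid ceramidase, had 31.2 and 5.28 against 65.4 and 41.1 CPM, with 92.5% of its fragments in retained-intron exons. Lamp2 overlapped at 980, 1720, 1244 and 1107 CPM. The receptor, droplet and lysosomal genes with higher values in both knockouts shared that direction with the macrophage markers given above. The part of the markers in these values was not tested.

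Both knockouts were above both controls in 4 of 16 tested oxidation genes (25%, against 19.5% of all genes) and below in 0, and above in 0 of 9 PPAR genes and below in 1 (11.1%, against 11.2%). The medians were 0.10 and 0.01. Cpt1a, which admits fatty acids to mitochondria, had 240, 199, 240 and 203 CPM, nearly the same range in both groups (log2 fold change 0.01, SE 0.56). Pdk4, a PPAR target, had 27.5, 748, 81.9 and 246 CPM, so the controls differed from each other more than the groups did. Of 7 tested genes for fatty acid binding and import, 2 (28.6%, against 19.5% of all genes) had both knockouts above and 1 (14.3%, against 11.2%) below. Acsl1, which activates long fatty acids, was one of them at 18.3, 45.7, 70.6 and 63.8 CPM, and Fabp7, the brain-type binding protein, had 6, 0, 44 and 106 fragments by library.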

How the data were processed

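RNA was measured in 4 libraries, 2 per genotype, and their numbers (control 1 and so on) are names only, as no label gives a replicate number. The deposited values are raw counts of fragments for each exon entry, made with featureCounts 2.0.1 from pairs with both ends mapped, without strand, against GENCODE M23 on GRCm38, per the file headers. Trim Galore 0.6.7 and STAR 2.7.9a had been used before that, per the submitters' processing notes. A fragment on more than 1 exon entry was not counted, so 545076 of the 841606 entries (64.8%), whose coordinates recur in another transcript, held 0 fragments, and a gene's count comes from exon stretches of 1 transcript. Retained-intron exons (types from GENCODE M21, which holds 99.7% of the entries) had 8.30% of all fragments. Overlapping genes on opposite strands cannot be told apart. Fragment lengths were not examined.

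Counts were summed per gene. edgeR 4.0.16 (R 4.3.3) was used with TMM factors, a filterByExpr minimum count of 10 and the two-sided quasi-likelihood test over 12434 genes, with Benjamini-Hochberg adjustment at 0.05, after the code was tested on simulated data. DESeq2 1.42.0 and limma 3.58.1 (voom) were alternatives. Other settings were DESeq2 size factors, upper-quartile factors, no low-count filter, genes with a fragment in every library, leaving out each library, leaving out retained-intron exons, and a covariate for Y-linked transcripts. The genes and lists were chosen with earlier results of these data known. Named genes are the 9 lipid handling genes, the 2 with the lowest p and the 2 with the highest mean CPM of each further lipid list, the gene with the highest CPM of each marker list (levels only), Mettl3 and the 2 nearest genes in pattern. Cd4, Lep, Aif1, Awat1 and Awat2 were named after their values were seen, and some genes the rule takes are described only within their lists or not reported here. No label says how many mice a library holds or which cream amount each mouse received, so p-values reflect how these libraries vary, which may be technical. Every pair of libraries differed by more than sampling noise (chi-square from 46.1 to 197.3 per degree of freedom), and all 4 were used as separate samples. Intervals and limits from a count of 0 include counting error alone.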

Additional observations from a re-analysis of the deposited data

How the results depend on the processing

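Of 94 values of the lipid handling genes under other settings, 91 kept their direction and their side of the threshold, and of 378 for 32 other lipid genes, 354 did. The number of genes called was 0 in the chosen fit, 17 by DESeq2, 27 with no low-count filter, and 0 to 4 with 1 library left out. The counts of non-overlapping genes without each library were added after seeing the data. Without control 1, 4 of the 8 genes were above (against 54.5% of all genes tested) and 3 below (against 29.3%). Without control 2, 6 were above (against 28.8%) and 1 below (against 31.5%). Without knockout 1, 5 were above (against 33.4%) and 1 below (against 20.5%). Without knockout 2, 4 were above (against 36.5%) and 2 below (against 21.6%). Over all genes tested the median was 0.20 (log2), lay between 0.19 and 0.44 with other scalings and tests, and was -0.06 over genes detected in all 4 libraries, 1.72 without control 1, 0.05 without control 2, -0.01 without knockout 1 and 0.10 without knockout 2. Directions reversed in some settings, and the cause was not tested. With 1 library left out, log2 fold changes ranged for Fabp4 from -0.87 (without knockout 2; -0.54 without control 1) to 2.28, for Fabp5 from -2.28 to 0.94 (without control 2), for Scd1 from -2.53 (without knockout 2; -0.50 without control 1) to 3.87, for Adipoq from -1.38 (without knockout 2; -0.65 without control 1) to 5.20, for Insig1 from -0.59 to 0.13 (without knockout 2) and for Plin3 from -0.44 to 0.23 (without knockout 1). Where leaving out control 2 reversed the sign, the ranges were -0.78 to 0.41 for Cyp51 (0.18 without knockout 1), -0.56 to 3.06 for Lrp1, -0.71 to 0.36 for Scarb2, -0.58 to 0.30 for Acsl5 (0.086 without control 2 and 0.30 without knockout 2), -0.23 to 1.45 for Slc27a4 (-0.11 without control 2), -2.13 to 2.56 for Pdk4, -1.75 to 0.044 for Hadh, -0.12 to 0.22 for Cpt1a (-0.076 without knockout 1) and -0.48 to 0.26 for Lamp2. Scd1 was -0.57 with the covariate for Y-linked transcripts and Pdk4 0.077 by limma-voom. Cpt1a was -0.0032 with DESeq2 size factors, -0.0032 by DESeq2 and -0.0086 when each gene needed a fragment in every library. Lipa was not tested without retained-intron exons, because that leaves too few fragments, and neither was Fabp4. No paired analysis was possible because the labels state no replicate numbers and no pairing, and the labels do not say what the sample titles stand for. With 2 libraries per group, even the largest differences did not pass in the chosen fit, where log2 fold changes of all genes ran from -11.5 to 9.96. The lack of a call thus does not exclude a difference, above all in Cd36 and Lipa with their few fragments.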

Other observations

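Fabp4 and the summed sebaceous gland markers were high in the same libraries, where Scd1 alone held most of that sum. The 11 sebaceous markers summed to 364 CPM (control 1), 3264 (control 2), 543 (knockout 1) and 4190 (knockout 2). Scd1 had 141, 3064, 255 and 3894 CPM of these in the same order. Apart from Scd1 the sum did not follow the split of Fabp4, and 3, 4, 4 and 2 of the 11 markers were at 0 by library. Awat1 and Awat2, the wax synthases of the gland, were at 0 in all 4 libraries. The 14 endothelial markers, whose cells also hold Lpl on their surface, summed to 131, 133, 104 and 187 CPM in the same order.

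The number of Fabp5 fragments per Fabp4 fragment was 2.98 in control 1, 3.92 in control 2 and 3.15 in knockout 1, against 0.624 in knockout 2. The controls and knockout 1 were close although the Fabp4 level of control 2 was 7.42 times that of control 1. The number of Apoe fragments per Abca1 fragment was 0.721, 2.31, 0.371 and 0.920 in library order, with both groups overlapping.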
